A study of Homo sapiens with 27 samples.

Results

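In the colorectal cancer line SW48, 141 of 17687 named genes (0.797%) kept, after treatment had ended, a change that was present in cells selected under treatment: 69 genes were higher and 72 lower than in untreated parental cells. A gene was counted when the mean of the resistant arrays and the mean of the withdrawal arrays both lay at least 0.8 above, or both at least 0.8 below, the mean of the parental arrays on the log2 scale, and when the highest of the 3 means was 7 or more. The genes were thus chosen by their SW48 values in both contrasts with parental cells, so their SW48 values are given as a description with no test. Tests of these genes are reported only for differences within LIM1215 and within Caco2, whose values the rule did not use. The spread behind those tests was estimated over all 27 arrays, SW48 arrays included.

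The study profiled total RNA of 3 human colorectal cancer lines, LIM1215, SW48 and Caco2, on 27 single-colour whole-transcript arrays, with 3 arrays for each line and state. Parental cells were the original lines, which the labels say were cultured from a single clone, with no agent added. Resistant cells had survived 20 rounds of challenge in a 10 cm dish with NK-CD16 cells, natural killer (NK) cells named for the Fc receptor CD16, and 1 ug/ml of cetuximab, an antibody against the epidermal growth factor receptor EGFR. Withdrawal cells were descendants of the resistant cells after a further 20 rounds with neither agent. The 3 lines were kept in different media. Whether replicates came from separate cultures is not stated, so p-values measure only the spread between these arrays, which may be technical. The comparison asks which transcripts of surviving cells were still altered when the challenge had stopped.

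Antibodies bound to a tumour cell are recognised by CD16 on NK cells, which then release perforin and granzymes onto the target and secrete interferon gamma. Interferon raises antigen presentation and antiviral genes through STAT factors, IRF9 and IRF1. Among the genes described here, urokinase and its receptor start the proteolytic activation of plasminogen at the cell surface, hyaluronan synthases build and CEMIP degrades the matrix polymer hyaluronan, tensin 4, GAB2 and GRB7 couple receptors to the cytoskeleton and to kinases, and ULBP1 is a stress ligand that NK cells read through the receptor NKG2D.

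Replicates of 1 state correlated across genes with r between 0.99508 and 0.996 in SW48. LIM1215 parental replicate 3 stood apart from its group, with r down to 0.98709, so the main LIM1215 counts, and named values that it moves by 1.5 times or more, are also given without it. Of 11 colorectal epithelial markers, 6 were above background in every SW48 state (CDH1, CDX2, EPCAM, KRT8, KRT18 and KRT19), while CDH17, CDX1, GPA33, LGALS4 and VIL1 were not. Background here is the 95th percentile of the negative-control probes, 6.72 in parental, 7.08 in resistant and 6.88 in withdrawal SW48 cells. Of 28 NK cell markers, 15 were at least 0.8 higher in resistant than in parental SW48 cells, 4 were above background there (CCL5, GZMA, IL2RG and NCAM1) and 1 (PTPRC) in each of the other states. The mean of the NK markers was 3.013 to 3.172 on parental, 4.409 to 4.663 on resistant and 3.163 to 3.248 on withdrawal arrays. Perforin (PRF1) and granzyme B (GZMB) were near background by their group means in every SW48 state, and none of the 28 is among the 141 genes. The part of these transcripts in the resistant values was not tested. In such bulk samples, fewer cells of a kind and less RNA per cell cannot be told apart.

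Most of what changed in resistant SW48 cells was not kept. In resistant cells 939 genes lay at least 0.8 above and 1059 at least 0.8 below parental cells, against 201 and 254 in withdrawal cells. Among the 69 higher genes the median difference from parental cells was 1.39 in resistant cells (0.804 to 8.2) and 0.972 in withdrawal cells (0.8 to 4.49). For the 72 lower genes it was -1.48 (-5.13 to -0.807) and -1.02 (-5.68 to -0.801). The resistant and withdrawal differences share the parental arrays. Withdrawal cells kept a median of 76.4% of the resistant log2 difference for the higher genes (18.0% to 174%) and 74.8% for the lower genes (19.5% to 322%). Of the higher genes, 14 went further after withdrawal, 37 kept between 50% and 100%, and 18 kept less. Of the lower genes, 12 went further, 38 kept between 50% and 100%, and 22 kept less.

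**Figure D1:**
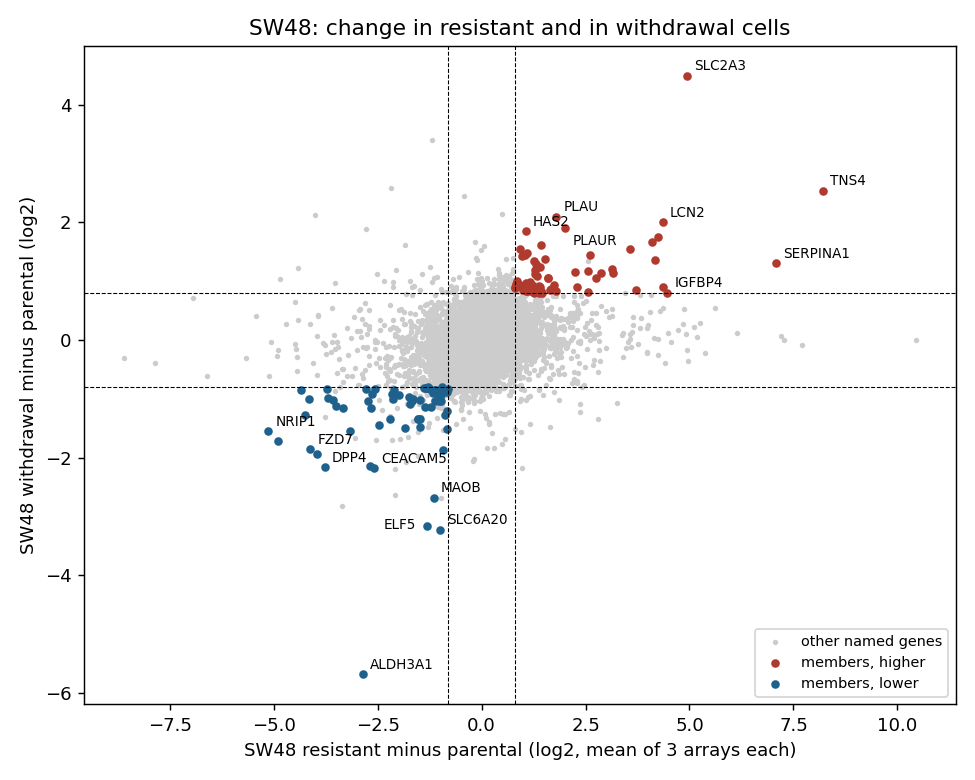
Difference from parental SW48 cells (log2, means of 3 arrays) in resistant cells (horizontal axis) and withdrawal cells (vertical axis) for 17687 genes, with dashed lines at 0.8 and -0.8. The 69 higher and 72 lower genes lie in the outer corners; grey points in those corners are genes whose highest state mean is under 7. Most genes far out along the horizontal axis lie near 0 on the vertical one, while SLC2A3 and ALDH3A1 are far out on both.

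The 3 resistant arrays lay wholly beyond the 3 parental arrays for all 69 higher genes and all 72 lower genes, where 35.5% of all genes did so. The withdrawal arrays did so for 66 of the higher genes (all but CETN3, GRB7 and KIF13B) and 69 of the lower genes (all but BORCS7, GARIN1A and IFT81), where 22.1% of all genes did. The members' counts follow from the way they were chosen, and nothing is read from them; limma called 22.7% and 4.08% of all genes in these contrasts. Of the higher genes, 19 started near background in parental cells, and 8 were still near background in withdrawal cells. Of the lower genes, 33 ended near background in resistant cells and 26 in withdrawal cells. For these genes a log2 difference or share kept is that of the deposited values, and only the folds given as "at least" are measured.

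Among genes of proteolysis at the cell surface and of the matrix, PLAUR and PLAU kept nearly all or more of their higher level. PLAUR, the receptor of urokinase, read 8.30, 8.65 and 8.46 on the parental arrays, 10.45, 10.38 and 10.60 on the resistant arrays and 10.42, 10.46 and 10.21 on the withdrawal arrays. Its resistant and withdrawal arrays overlapped each other and stood above every parental array, 4.02-fold and 3.73-fold higher. PLAU, which encodes urokinase itself, read 9.44, 9.58 and 9.65 on the parental arrays, 11.30, 11.24 and 11.48 on the resistant arrays and 11.50, 11.68 and 11.76 on the withdrawal arrays, 3.46-fold and 4.27-fold higher. Its 3 withdrawal arrays lay above all 3 resistant ones.

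CCN1, a secreted matricellular protein that binds integrins, read 10.27, 10.09 and 9.78 on the parental arrays, 13.66, 13.59 and 13.61 on the resistant arrays and 11.55, 11.64 and 11.60 on the withdrawal arrays. It was 11.9-fold higher in resistant cells and 2.93-fold higher after withdrawal, with no overlap between any of the states. TINAGL1, a secreted matrix protein, read 11.60, 11.60 and 11.15 on the parental arrays, 12.70, 12.64 and 12.80 on the resistant arrays and 12.79, 12.82 and 12.76 on the withdrawal arrays and kept 106% of its log2 difference. HAS2, which makes hyaluronan, went further after withdrawal: 11.95, 12.12 and 11.68 on the parental arrays, 13.01, 12.89 and 13.02 on the resistant arrays and 13.73, 13.84 and 13.71 on the withdrawal arrays, 2.09-fold and 3.59-fold above parental cells. CEMIP, which takes part in hyaluronan breakdown, was lower in both states, at 9.01, 8.99 and 8.997 on the parental arrays, 7.13, 7.40 and 7.91 on the resistant arrays and 7.97, 7.83 and 7.18 on the withdrawal arrays. One gene of hyaluronan synthesis and one of its degradation lay on opposite sides of the parental level in both later states.

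IGFBP3 and IGFBP4, secreted proteins that bind insulin-like growth factors, differed in how much they kept. IGFBP3 read 9.98, 9.52 and 9.80 on the parental arrays, 10.80, 10.84 and 10.83 on the resistant arrays and 11.01, 11.27 and 11.37 on the withdrawal arrays, so it was 2.08-fold higher in resistant and 2.73-fold higher in withdrawal cells. IGFBP4 read 8.58, 8.45 and 8.52 on the parental arrays, 12.94, 12.98 and 13.02 on the resistant arrays and 9.26, 9.39 and 9.31 on the withdrawal arrays. Its difference of 4.47 in resistant cells shrank to 0.80, or 18%, the smallest share among the 69 higher genes. AGRN, a heparan sulphate proteoglycan of basement membranes, was 1.07 and 0.83 higher. TM4SF1, a tetraspan surface protein, was at least 1.53-fold higher in resistant cells but lay near background in parental and withdrawal cells.

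The higher genes also held keratins and secreted epithelial proteins. KRT18, a simple-epithelium keratin, read 13.29, 13.30 and 13.28 on the parental arrays, 15.53, 15.54 and 15.50 on the resistant arrays and 14.56, 14.47 and 14.31 on the withdrawal arrays, and its 3 states did not overlap. KRT80, an epithelial keratin, read 11.04, 11.11 and 11.07 on the parental arrays, 12.09, 12.26 and 12.17 on the resistant arrays and 11.95, 11.97 and 11.94 on the withdrawal arrays. Of 12 measured keratins these were the 2 that met the rule, while 5 were at least 0.8 higher and 3 at least 0.8 lower in resistant cells. LCN2, an iron-withholding secreted lipocalin, read 8.64, 8.84 and 9.13 on the parental arrays, 13.21, 13.46 and 13.01 on the resistant arrays and 11.07, 10.81 and 10.73 on the withdrawal arrays, 20.5-fold higher in resistant and 4-fold higher in withdrawal cells.

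The secreted serine protease gene KLK6 read 12.76, 12.85 and 12.99 on the parental arrays, 15.57, 15.71 and 15.56 on the resistant arrays and 13.90, 13.90 and 13.97 on the withdrawal arrays. It kept 38.4% of its log2 difference, and no 2 states overlapped. The tetraspanin gene TSPAN1 read 9.44, 9.99 and 9.28 on the parental arrays, 13.84, 13.59 and 13.76 on the resistant arrays and 10.92, 11.03 and 10.84 on the withdrawal arrays, 17.9-fold and 2.57-fold higher. CRABP2, a carrier of retinoic acid, read 7.21, 7.39 and 7.10 on the parental arrays, 11.30, 11.31 and 11.38 on the resistant arrays and 8.93, 8.94 and 8.85 on the withdrawal arrays, 17.1-fold and 3.18-fold higher. SERPINA1, the protease inhibitor alpha-1-antitrypsin, was at least 5.38-fold higher in resistant cells, at 9.07, 9.38 and 9.003. Its withdrawal values of 3.58, 3.25 and 3.29 stayed near background, as did the parental values of 2.06, 2.20 and 1.94, so no level could be told from background there.

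**Figure D2:**
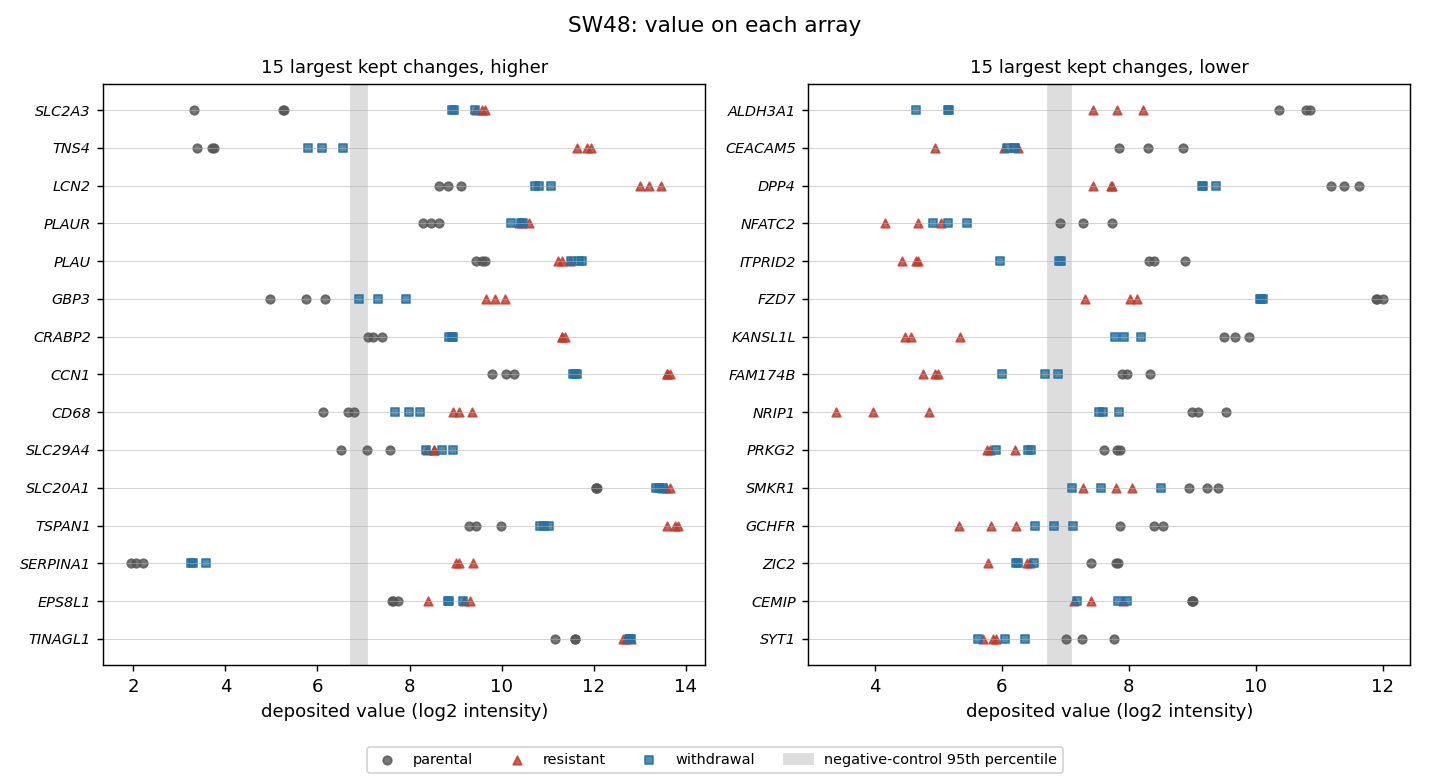
Deposited log2 value on each of the 9 SW48 arrays for the 15 genes with the largest kept higher difference (left) and the 15 with the largest kept lower difference (right), ranked by the smaller of their 2 differences; circles are parental, triangles resistant and squares withdrawal arrays, and the grey band spans the negative-control 95th percentiles of the 3 states, 6.72 to 7.08. PLAUR, PLAU and SLC20A1 have resistant and withdrawal arrays side by side, while for TNS4, TSPAN1 and SERPINA1 the withdrawal arrays lie between parental and resistant ones.

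Adaptors that couple receptors to the cytoskeleton and to kinases were represented by 3 of 22 listed growth factor adaptors and phosphatases. Of the 22, 4 were at least 0.8 higher and 6 at least 0.8 lower in resistant cells, so the list moved both ways. TNS4, the short tensin of focal adhesions, read 3.71, 3.76 and 3.37 on the parental arrays, 11.95, 11.86 and 11.64 on the resistant arrays and 6.09, 5.80 and 6.55 on the withdrawal arrays. It was at least 34.1-fold higher in resistant cells, and although the withdrawal arrays lay above the parental ones, both groups were near background. GAB2, a docking protein for SHP2 and PI3-kinase, read 7.31, 7.71 and 7.24 on the parental arrays, 9.96, 10.07 and 9.90 on the resistant arrays and 8.48, 8.15 and 8.06 on the withdrawal arrays, 5.88-fold and 1.76-fold higher. GRB7, an adaptor that binds ErbB receptors, was 1.44 and 0.80 higher, but its parental and withdrawal means were near background and their arrays overlapped. EPS8L1, an EPS8-family protein of actin regulation, read 7.74, 7.64 and 7.61 on the parental arrays, 8.41, 9.32 and 9.18 on the resistant arrays and 9.17, 8.87 and 8.83 on the withdrawal arrays and kept 99%.

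Cytokine and growth factor receptors among the higher genes were IL4R, IL15RA, IL17RC and FGFR4. IL4R, a chain shared by interleukin 4 and 13 receptors, was 2.31-fold and 1.91-fold higher, and IL15RA, which presents interleukin 15, 2.12-fold and 1.77-fold. IL17RC, a chain of the interleukin 17 receptor, was 2.26-fold and 1.86-fold higher, and the receptor kinase FGFR4 1.98-fold and 1.8-fold. Among regulators of transcription and of RNA, ETS1, the founding ETS factor, read 8.51, 7.88 and 8.14 on the parental arrays, 9.74, 9.997 and 9.84 on the resistant arrays and 9.14, 9.17 and 8.79 on the withdrawal arrays. ZFP36, which destabilises cytokine mRNAs, was further above parental cells after withdrawal (1.47) than in resistant cells (1.09).

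Few interferon response genes met the rule. Of 42 measured type I interferon response genes 29 were at least 0.8 higher in resistant SW48 cells, and 2, IFI6 and IRF9, were so in withdrawal cells. Of 26 interferon gamma response genes the counts were 12 and 1 (GBP3), and of 19 HLA class I presentation genes 14 and 0. GBP3, a guanylate-binding protein, read 6.17, 4.98 and 5.75 on the parental arrays, 9.67, 9.86 and 10.08 on the resistant arrays and 7.30, 6.91 and 7.92 on the withdrawal arrays, at least 8.87-fold higher in resistant cells and at least 1.57-fold higher after withdrawal, with 1 of the 3 withdrawal arrays close to background.

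IRF9, a transcription factor of the type I interferon response, read 5.46, 5.12 and 5.51 on the parental arrays, 9.66, 9.58 and 9.94 on the resistant arrays and 6.81, 6.12 and 5.86 on the withdrawal arrays. It was at least 8.03-fold higher in resistant cells, while the withdrawal and parental means were both near background. The same was true of IFI6, an interferon-induced antiviral protein, at 7.92, 7.98 and 7.06 on resistant and 4.96, 4.45 and 4.996 on withdrawal arrays. SECTM1, an interferon-inducible surface protein, was just above background in parental cells and 5.9-fold and 2.25-fold higher. None of the kept interferon genes had a withdrawal level at or above its resistant level.

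The sequences near the start sites of these genes, from RefSeq on the GRCh38.p14 assembly, were searched on both strands for the core of the interferon-stimulated response element, GAAA repeated after any 2 bases, and for TTCNNNGAA, the STAT site. A promoter was taken as 250 bases before to 50 after the start, and 107 of the 141 genes had one in the table (47 higher and 60 lower). The GAAA repeat occurred in 3 of the 47 higher genes (6.38%: GBP3, IFI6 and SECTM1), 1 of the 60 lower ones (1.67%: CYP4V2) and 3.11% of all 14250 promoters. TTCNNNGAA occurred in 10.6%, 6.67% and 6.93%. The IFI6 and IRF9 stretches are shown because they carry the matches of the kept type I interferon genes. Capitals mark the matched bases, 5′ to 3′ on the gene's strand. IFI6 had 3 matches of the repeat between positions -156 and -84 from the start, and IRF9 1 match of TTCNNNGAA.
IFI6 chr1:27672251-27672373 (minus strand): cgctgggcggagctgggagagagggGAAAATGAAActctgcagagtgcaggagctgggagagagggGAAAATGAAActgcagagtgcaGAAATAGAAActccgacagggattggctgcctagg
IRF9 chr14:24161177-24161235 (plus strand): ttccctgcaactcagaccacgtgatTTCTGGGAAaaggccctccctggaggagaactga

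TGANTCA is a loose form of the AP-1 site that leaves its middle base open, so a match need not be that site. It occurred in 4 of the 47 higher promoters (8.51%), 2 of the 60 lower ones (3.33%: SLC7A8 and TMEM144) and 5.75% of all. The stretches of the 4 higher genes, PLAUR, LCN2, CD68 and GBP3, are shown with the match in capitals. The open base was G in PLAUR, CD68 and GBP3, A in LCN2 and T in SLC7A8.
PLAUR chr19:43670324-43670380 (minus strand): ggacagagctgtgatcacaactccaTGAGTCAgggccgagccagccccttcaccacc
LCN2 chr9:128149376-128149432 (plus strand): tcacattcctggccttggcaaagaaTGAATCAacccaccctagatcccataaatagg
CD68 chr17:7579513-7579569 (plus strand): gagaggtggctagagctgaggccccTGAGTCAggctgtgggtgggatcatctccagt
GBP3 chr1:89022867-89022914 (minus strand): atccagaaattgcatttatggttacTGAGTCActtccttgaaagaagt
The other motifs searched were TGATGNAA, the amino acid response element (1 higher gene, KLK6, and 1 lower gene, NRIP1; 2.52% of all promoters), and the TCF sites CTTTGATC (none of the 107; 0.498% of all) and CTTTGTTC (1 higher gene, PLAU; 1.05% of all). The matches describe letters in these windows. Median GC content was 67.0% in the higher and 66.0% in the lower genes, against 63.0% in all promoters, with 27, 26 and 22 CpG pairs. The set of all promoters includes genes dimmer than the members, and no set matched in level was compared.

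Transporters and metabolic enzymes lay on both sides. SLC2A3, the glucose transporter GLUT3, read 5.25, 5.27 and 3.31 on the parental arrays, 9.63, 9.45 and 9.57 on the resistant arrays and 8.96, 8.93 and 9.41 on the withdrawal arrays. The parental values were near background, with replicate 3 below the other 2, and every later array stood above them, at least 7.1-fold in resistant and at least 5.2-fold in withdrawal cells. SLC2A3 was the 1 member among 16 listed hypoxia and glycolysis genes, of which 2 were at least 0.8 higher and 4 at least 0.8 lower in resistant cells.

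The phosphate importer SLC20A1 read 12.06, 12.04 and 12.07 on the parental arrays, 13.66, 13.49 and 13.57 on the resistant arrays and 13.41, 13.50 and 13.37 on the withdrawal arrays, 2.86-fold and 2.58-fold higher. SLC29A4, a transporter of monoamines and adenosine, read 7.58, 7.08 and 6.50 on the parental arrays, 8.53, 8.54 and 8.37 on the resistant arrays and 8.70, 8.36 and 8.95 on the withdrawal arrays, 2.68-fold and 3.07-fold higher. In both, resistant and withdrawal arrays were intermingled or adjacent and clear of the parental ones. UPP1, which salvages uridine, was 3.04-fold and 2.07-fold higher, UCP2, a mitochondrial carrier, 2.16-fold and 1.93-fold, and SOAT1, which esterifies cholesterol, 2.6-fold and 1.75-fold. The mitophagy receptor gene BNIP3L, at 14.13 to 14.26 on parental arrays, read 14.96 to 15.03 in resistant and 15.04 to 15.13 in withdrawal cells.

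CD68, a lysosomal glycoprotein used as a macrophage marker, read 6.13, 6.67 and 6.79 on the parental arrays, 9.36, 8.95 and 9.08 on the resistant arrays and 7.996, 8.24 and 7.69 on the withdrawal arrays, at least 5.31-fold and at least 2.38-fold higher. It was the 1 gene of 13 listed B cell and myeloid markers above background in resistant and in withdrawal SW48 cells. TP53INP1, a p53 target of autophagy, was at least 2.35-fold and at least 1.21-fold higher and the 1 member among 17 p53 targets, of which 9 were at least 0.8 higher in resistant cells.

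Among enzymes, ALDH3A1, an aldehyde dehydrogenase, read 10.79, 10.86 and 10.37 on the parental arrays, 7.81, 7.44 and 8.23 on the resistant arrays and 5.15, 4.65 and 5.17 on the withdrawal arrays. It was 7.19-fold lower in resistant cells and at least 13.8-fold lower in withdrawal cells, and withdrawal cells lay near background, further from the parental level. Of 27 listed NRF2 and detoxification genes it was the 1 member. Its relative ALDH3B1 went the other way, at 1.65 and 0.85. MAOB, which oxidises monoamines, was likewise lower in resistant cells and near background after withdrawal, at 8.82, 8.71 and 8.81 on the parental arrays, 7.22, 7.92 and 7.73 on the resistant arrays and 6.47, 5.65 and 6.16 on the withdrawal arrays.

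The proline transporter SLC6A20 read 8.77, 9.03 and 9.19 on the parental arrays, 8.20, 7.75 and 8.04 on the resistant arrays and 4.94, 6.32 and 6.07 on the withdrawal arrays. It was 2-fold lower in resistant cells and, with withdrawal cells near background, at least 4.33-fold lower there. Other transporters lay closer to the parental level after withdrawal. SLC7A8, which exchanges large neutral amino acids, was 17.6-fold lower in resistant and 2.01-fold lower in withdrawal cells. SLCO1B3, an organic anion transporter with close paralogues that array probes may share, read 12.48, 12.72 and 12.71 on the parental arrays, 8.40, 7.78 and 8.75 on the resistant arrays and 11.84, 11.59 and 11.95 on the withdrawal arrays and kept 19.5%, the smallest share among the lower genes. CYP4V2, a fatty acid hydroxylase, was 2.58-fold and 2.19-fold lower. CD36, a fatty acid and lipoprotein receptor, read 17.30 to 17.45 on parental, 16.18 to 16.34 on resistant and 16.43 to 16.63 on withdrawal arrays. GCHFR, the feedback regulator of GTP cyclohydrolase, read 8.54, 8.40 and 7.87 on parental arrays and was near background in both later states.

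Lower genes for surface proteins included CEACAM5, DPP4, ULBP1 and FZD7. CEACAM5, the carcinoembryonic antigen that also inhibits NK cells through CEACAM1, read 8.86, 8.30 and 7.85 on the parental arrays, 6.03, 6.25 and 4.95 on the resistant arrays and 6.08, 6.18 and 6.21 on the withdrawal arrays. Both later states were near background, at least 2.38-fold and at least 2.73-fold lower, and overlapped each other. DPP4, a surface peptidase, read 11.62, 11.18 and 11.39 on the parental arrays, 7.71, 7.74 and 7.44 on the resistant arrays and 9.38, 9.16 and 9.17 on the withdrawal arrays, 13.6-fold and 4.48-fold lower. ULBP1 read 10.65, 10.58 and 10.66 on the parental arrays, 8.45, 8.34 and 8.73 on the resistant arrays and 9.79, 9.69 and 9.38 on the withdrawal arrays, 4.36-fold and 2.01-fold lower. It was the 1 member among 21 NK receptor ligands, of which 4 were at least 0.8 higher and 3 as much lower in resistant cells. CEACAM5 was the 1 member among 15 inhibitory surface ligands, of which 5 were at least 0.8 higher and 3 as much lower there.

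FZD7, a WNT receptor, read 12.003, 11.90 and 11.90 on the parental arrays, 8.13, 8.02 and 7.31 on the resistant arrays and 10.08, 10.06 and 10.10 on the withdrawal arrays, 17.3-fold and 3.61-fold lower, with 3 separate levels. It was the 1 member of 23 WNT target and stem cell genes. The WNT ligand gene WNT16 read 8.15 to 8.27 on parental arrays, was near background in resistant cells and was 1.9-fold lower after withdrawal. IL20RA, a cytokine receptor chain, was near background in both later states. CHRM3, a muscarinic acetylcholine receptor, and SYK, a kinase of immune receptors, were near background in resistant cells and 1.78-fold and 1.79-fold lower in withdrawal cells.

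Among transcriptional and signalling regulators, NRIP1, a corepressor of nuclear receptors, read 9.52, 9.09 and 8.99 on the parental arrays, 3.97, 3.39 and 4.85 on the resistant arrays and 7.53, 7.59 and 7.85 on the withdrawal arrays. It was at least 4.35-fold lower in resistant cells and 2.92-fold lower in withdrawal cells. NFATC2, a calcium-regulated transcription factor, and ZIC2, a zinc finger factor of development, were near background in both later states. NFATC2 went from 7.28, 6.91 and 7.74 on parental arrays to 5.15, 4.91 and 5.46 on withdrawal arrays, and ZIC2 from 7.80, 7.82 and 7.40 to 6.50, 6.26 and 6.22. ELF5, an epithelial ETS factor, was near background in resistant cells and lower still after withdrawal, at 7.82, 7.82 and 7.98 on the parental arrays, 6.64, 6.61 and 6.44 on the resistant arrays and 5.14, 4.59 and 4.43 on the withdrawal arrays. The homeobox genes MSX2 and PBX3 were 1.84-fold and 1.76-fold lower in withdrawal cells, and HOXC13 was near background in both.

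PRKG2, the type II cGMP-dependent kinase, read 7.81, 7.87 and 7.60 on the parental arrays, 5.76, 5.81 and 6.21 on the resistant arrays and 6.42, 5.91 and 6.47 on the withdrawal arrays, near background in both later states. ITPRID2, which binds inositol trisphosphate receptors, was near background too, at 4.65, 4.69 and 4.43 and 6.93, 6.91 and 5.96 against 8.89, 8.32 and 8.39 in parental cells. KANSL1L was at least 6.08-fold and 3.29-fold lower and SMKR1 2.81-fold and 2.77-fold. FAM174B and SYT1, a calcium sensor of vesicle release, were near background in both later states. The histone genes H4C2 (2.04-fold lower after withdrawal) and H4C4 (2.02-fold lower) and the general transcription factor gene GTF2IRD2 (1.94-fold lower) have near-identical copies elsewhere in the genome, so their values are uncertain.

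The members nearest the threshold of 0.8 were SNN (0.80), ZNF75A (-0.8013) and SCLT1 (-0.8031), and the nearest genes outside it were MDM1 (-0.7969), ANXA9 (0.7964) and SLCO5A1 (-0.7954), each in withdrawal cells. The lowest members by level were IFT81 (7.002), HOXC13 (7.037) and GARIN1A (7.054). When each of the 9 SW48 arrays was left out in turn, 38 of the 69 higher genes and 39 of the 72 lower genes met the rule every time. IFI6, IRF9, GAB2, GRB7 and TP53INP1 were among those that did not, while PLAUR, PLAU, SLC2A3, LCN2, ALDH3A1, DPP4 and FZD7 met it in all 9.

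In gene order on GRCh38.p14, 2 pairs of members were neighbours among the genes on the array: IGFBP4 with TNS4, and CASTOR1 with TBC1D10A, all 4 higher. AHDC1 and IFI6, both higher, had FGR between them. No run of 3 or more members was found.

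In the other lines these genes moved in both directions. Comparisons of resistant with parental cells called 35 of the 141 in LIM1215 (24.8%, against 10.8% of all genes) and 53 in Caco2 (37.6%, against 27.4%), with limma at an adjusted p under 0.05. Comparisons of withdrawal with parental cells called 43 in LIM1215 (30.5%, against 21.1%) and 8 in Caco2 (5.67%, against 5.28%). In LIM1215, 12 of the 69 higher genes and 17 of the 72 lower genes were near background in every state, and in Caco2 19 and 24. The calls include members with both compared groups near background. These were 7 of the 35 and 3 of the 43 in LIM1215, and 10 of the 53 and 3 of the 8 in Caco2. The shares over all genes include dimmer genes than the members. Shares over the 8760 genes with a SW48 state mean of 7 or more are therefore used below for each direction against parental cells with all arrays. These are called genes at this level, but they are not matched to the members in level in any line. Other values below are set beside all genes, dimmer ones included. These are the medians, the counts without LIM1215 parental replicate 3, the withdrawal-to-resistant comparisons, the differences between lines and the calls in both states.

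**Figure D3:**
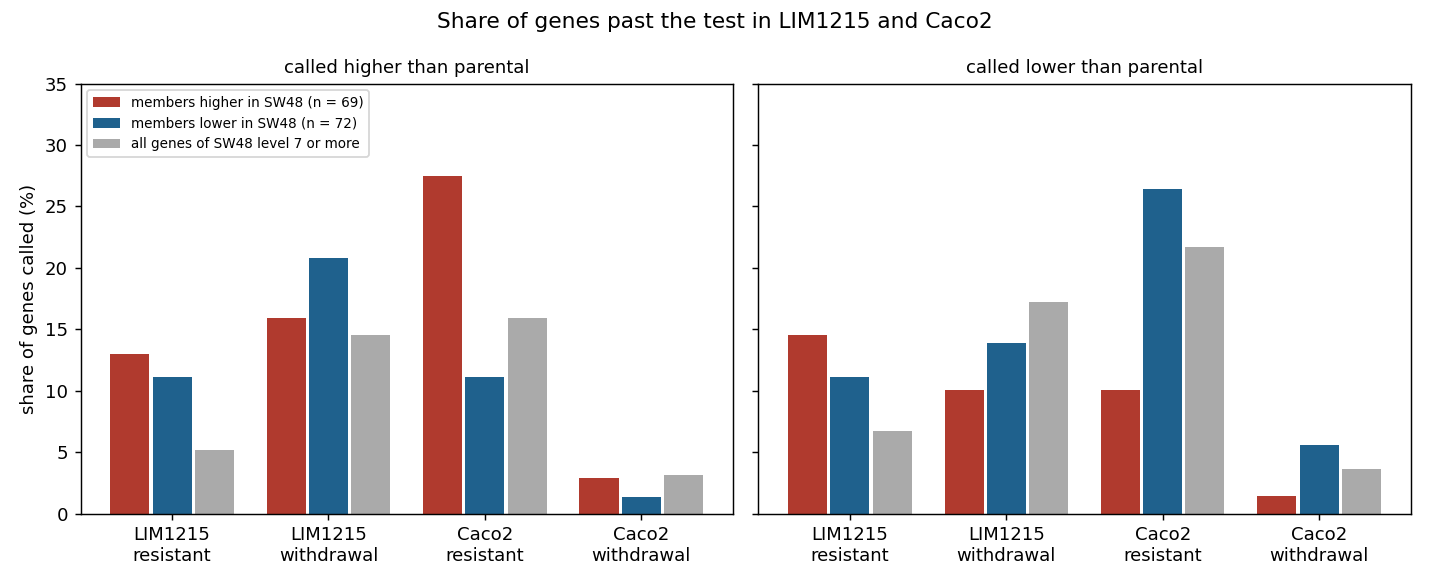
Share of genes (%) called higher (left) or lower (right) than parental cells in LIM1215 and Caco2 (limma, adjusted p under 0.05), for the 69 genes higher in SW48, the 72 genes lower in SW48 and all 8760 genes with a SW48 state mean of 7 or more. In resistant Caco2 cells 27.5% of the genes higher in SW48 were called higher against 15.9% of genes, and 26.4% of the genes lower in SW48 were called lower against 21.7%; in withdrawal LIM1215 cells 15.9% of the higher genes and 20.8% of the lower genes were called higher.

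In resistant Caco2 cells the genes higher in SW48 were called higher more often than all genes with a SW48 state mean of 7 or more. Calls of the genes lower in SW48 lay near the shares of that set. Of the 69 higher genes 19 rose (27.5%, against 15.9% of genes at this level) and 7 fell (10.1%, against 21.7%), with a median of 0.224 against -0.026 for all genes. Of the 72 lower genes 19 fell (26.4%, against 21.7%) and 8 rose (11.1%, against 15.9%), with a median of -0.032. The NK cell markers moved in the same comparison: 25 of 28 rose, and their mean went from 3.526 to 3.704 on parental to 6.443 to 6.691 on resistant arrays. None of them is a member, and their part in these counts was not tested.

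IFI6 rose most, and read 4.28, 5.14 and 5.52 in parental and 13.74, 13.75 and 13.92 in resistant cells (8.83 log2, SE 0.54, adjusted p = 9.83e-12). IRF9 read 6.58, 6.62 and 6.35 in parental and 12.35, 12.05 and 12.29 in resistant cells (5.71 log2, SE 0.816, adjusted p = 7.98e-06), and ETS1 2.91, 3.28 and 3.13 in parental and 8.83, 8.30 and 7.90 in resistant cells (5.24 log2, SE 0.293, adjusted p = 2.2e-12). In each of the 3 genes the parental arrays were near background and every resistant array lay above them, so the measured rises are at least 66.2-fold, at least 22.2-fold and at least 1.5-fold. SERPINA1 rose from 11.44, 11.54 and 11.59 to 15.78, 15.80 and 15.66 (4.22 log2, SE 0.137, adjusted p = 2.11e-16). ALDH3B1 and ZFP36 rose by 3.35 and 3.22 log2, and CD68 and AGRN, near background in parental cells, rose at least 3-fold and at least 3.29-fold. TSPAN1, TNS4, GBP3 and TBC1D10A passed as well, but both groups were near background.

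Of the genes lower in SW48, ULBP1 fell from 8.47, 8.49 and 8.34 to 5.08, 5.14 and 5.60 (-3.16 log2, SE 0.575, adjusted p = 0.00016), near background, so the measured fall is at least 1.46-fold. SCLT1, a ciliary gene, PRKG2 and SYT1 fell to near background, at least 1.26-fold, at least 1.04-fold and at least 3.81-fold, and SAMD5 fell 4.03-fold. Against the SW48 direction, ALDH3A1 rose (1.80 log2, SE 0.247, adjusted p = 4.82e-06), from 7.23, 7.10 and 6.16, near background, to 8.78, 8.55 and 8.54, at least 1.83-fold. HAS2 changed by -3.26 and CEMIP by 3.42, in each case opposite to SW48, but with both Caco2 groups near background. PLAUR and PLAU were near background in all Caco2 states and were not called against parental cells.

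After withdrawal 8 members were called in Caco2, 2 of the higher genes higher and 1 lower, 4 of the lower genes lower and 1 higher (3.12% of genes at this level were called higher and 3.6% lower). SERPINA1 stayed up at 13.43, 13.44 and 13.32 (1.87 log2, SE 0.137, adjusted p = 3.53e-09), and STX3, a syntaxin of apical membrane traffic, was higher by 0.43. The STX3 call was lost with Caco2 fitted on its own (limma, adjusted p = 0.0603). CEACAM5 fell from 9.93, 9.63 and 9.50 to 8.17, 8.02 and 8.26 (-1.54 log2, SE 0.356, adjusted p = 0.00999), though without parental replicate 1 its adjusted p was 0.0512. WDR72 (-1.01) and GTF2IRD2 (-0.51) were lower, and CYP4V2 was near background in both groups. WDR72 was near background after withdrawal and at a limma adjusted p of 0.0576 without parental replicate 3. GTF2IRD2 was at up to 0.0661 without parental or withdrawal replicate 1 or with Caco2 fitted on its own. ALDH3A1 passed as higher (1.12 log2, SE 0.247, adjusted p = 0.00692) and IGFBP3 as lower, with both groups near background, ALDH3A1 at an adjusted p of 0.0674 without parental replicate 3. The 2 calls against SW48 became 0 without parental replicate 3 and 1 without parental replicate 2 or any 1 of the withdrawal replicates.

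Between resistant and withdrawal Caco2 cells 38.3% of members were called (against 24.7% of all genes). Of the genes higher in SW48, 20 fell and 7 rose, and of the genes lower in SW48, 16 rose and 11 fell, where 12.1% of all genes rose and 12.5% fell. IFI6, IRF9 and ETS1 fell back to near background. ULBP1 rose (2.34 log2), but both groups were near background. This contrast shares the resistant arrays with the one above.

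In resistant LIM1215 cells the members were called nearly equally both ways. Of the 69 higher genes 9 rose (13.0%, against 5.14% of genes at this level) and 10 fell (14.5%, against 6.72%), with a median of -0.137 against -0.0277 for all genes. Of the 72 lower genes 8 rose and 8 fell (11.1% each), with a median of -0.0478. Without parental replicate 3, 17 of the higher genes rose and 11 fell (medians 0.0306 for the higher genes and -0.0401 for all genes), and 10 of the lower genes rose and 10 fell, where 7.35% of all genes rose and 7.37% fell (14.7% called). NK cell markers rose here too, 23 of 28, with a mean of 4.08 to 4.332 on parental and 7.273 to 7.651 on resistant arrays, and their part was not tested.

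PLAUR went against SW48 in resistant LIM1215 cells, where it was near background. It read 9.33, 9.27 and 12.44 on the parental arrays, 7.56, 7.15 and 7.71 on the resistant arrays and 12.33, 12.49 and 12.32 on the withdrawal arrays, and the parental values fall into a pair near 9.3 and replicate 3 at the withdrawal level. Resistant cells were lower than parental cells (-2.87 log2, SE 0.53, limma adjusted p = 0.000497, and without replicate 3 -1.83 log2, SE 0.329, adjusted p = 0.00038). With all arrays the fall is at least 6.07-fold, a bound that parental replicate 3 raises. The bound without that array is lower and is not given. TM4SF1 fell from 12.31, 12.45 and 11.65 to 6.74, 7.59 and 7.10 (-4.995 log2, SE 0.255, adjusted p = 1.01e-12), near background, so the measured fall is at least 21-fold. TNS4 (-2.31), KRT80 (-2.27), TINAGL1 (-2.06), ALDH3B1 (-1.74), IGFBP3 (-1.36) and LCN2 (-1.05, or -0.69 without parental replicate 3, and not called with LIM1215 fitted on its own) fell too. Of these, TNS4 is a focal adhesion protein, KRT80 a keratin and TINAGL1 a matrix protein, all higher in resistant SW48 cells.

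IRF9 rose with the SW48 direction, at 8.01, 7.18 and 13.09 on the parental arrays, 12.48, 12.32 and 12.43 on the resistant arrays and 11.46, 11.26 and 11.40 on the withdrawal arrays, where parental replicate 3 was above every resistant array (2.98 log2, SE 0.816, adjusted p = 0.0174; without replicate 3 4.81 log2, SE 0.278, adjusted p = 2.21e-11). The IRF9 call did not hold without parental replicate 1 or 2 or resistant replicate 1 or 3. It did not hold with LIM1215 fitted on its own either (limma, adjusted p up to 0.2293 over these settings). CCN1 read 8.42, 8.25 and 10.03 in parental and 11.30, 10.50 and 10.44 in resistant cells (1.84 log2, SE 0.296, adjusted p = 9.82e-05), SOAT1 rose by 2.24 log2, and SECTM1, near background in parental cells, rose at least 1.51-fold. Of the lower genes, CEMIP fell from 11.95, 11.78 and 13.000 to 10.51, 10.33 and 10.26 (-1.88 log2, SE 0.297, adjusted p = 8.43e-05) and ALDH3A1 from 10.60, 10.67 and 11.39 to 9.04, 9.21 and 9.41 (-1.67 log2, SE 0.247, adjusted p = 3.6e-05). CYP4V2, DPP4 and FZD7 rose, by 1.26, 0.76 and 0.80, against their SW48 direction. The DPP4 call did not hold without parental replicate 1, parental replicate 2 or resistant replicate 2, or with LIM1215 fitted on its own. Over these settings its adjusted p (limma) was up to 0.2255, and without parental replicate 3 its change was 1.14.

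**Figure D4:**
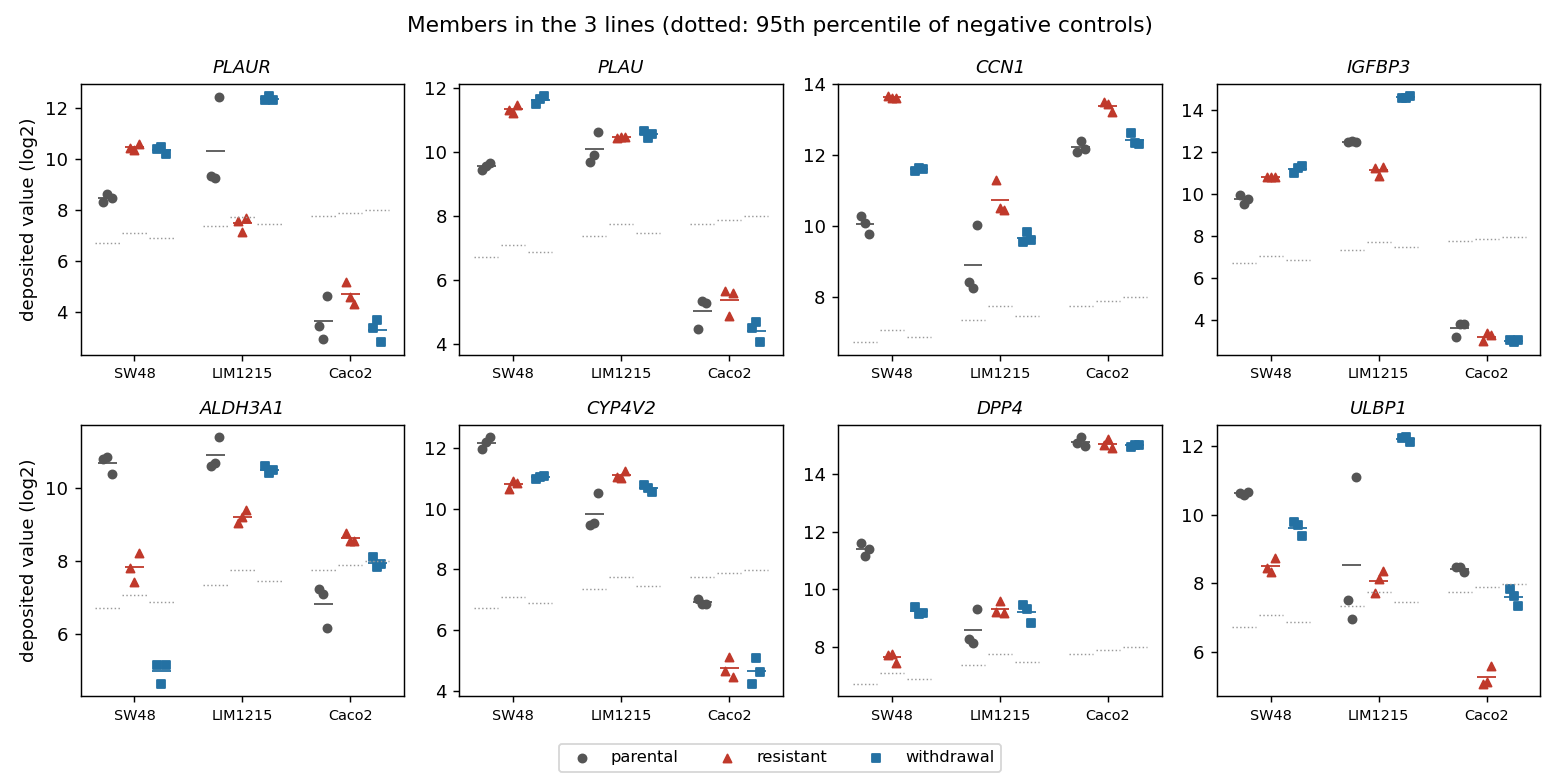
Deposited log2 values on all 27 arrays for 8 members, by line and state; lines mark the mean of 3 arrays and dotted lines the negative-control 95th percentile. PLAUR and IGFBP3 are higher in withdrawal cells of both SW48 and LIM1215, ULBP1 is high in withdrawal LIM1215 cells (12.12 to 12.26) and lower in withdrawal SW48 cells, and LIM1215 parental replicate 3 lies apart from its group for PLAUR, CCN1 and ULBP1.

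In withdrawal LIM1215 cells the members were called in both directions. IGFBP3 and UPP1 stood above parental cells, as in SW48. PLAUR did so by its mean, with parental replicate 3 at the withdrawal level. Of the 69 higher genes 11 rose (15.9%, against 14.5% of genes at this level) and 7 fell (10.1%, against 17.2%), with a median of 0.132 against 0.00486 for all genes. Of the 72 lower genes 10 fell (13.9%, against 17.2%) and 15 rose (20.8%, against 14.5%), with a median of 0.0928. Without parental replicate 3 the counts were 23 and 9 for the higher genes (median 0.288) and 12 and 17 for the lower genes (median 0.0866), where 13.3% of all genes rose and 15.1% fell (28.4% called). Over both sets, the calls with the SW48 direction were 21 with all arrays, 35 without parental replicate 3 and 12 without parental replicate 1, and those against it were 22 with all arrays and 13 without parental replicate 2.

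IGFBP3 rose from 12.50, 12.52 and 12.51 to 14.59, 14.61 and 14.68 (2.12 log2, SE 0.155, adjusted p = 1.72e-08), the reverse of its fall in resistant cells. UPP1 rose from 8.48, 8.46 and 8.06 to 10.42, 10.43 and 10.60 (2.15 log2, SE 0.306, adjusted p = 3.15e-05). PLAUR rose (2.04 log2, SE 0.53, adjusted p = 0.00761), and without parental replicate 3 it rose more (3.08 log2, SE 0.329, adjusted p = 2.57e-07). Its call did not hold without parental replicate 1 or 2 or with LIM1215 fitted on its own, with a limma adjusted p of up to 0.0977. KRT80, ZFP36, EPS8L1 and CD68 rose by 1.46, 1.41, 1.41 and 1.06, CD68 not without parental replicate 1 or 2. With LIM1215 fitted on its own, ZFP36 and CD68 were not called.

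PLAU read 9.69, 9.91 and 10.64 on the parental arrays, 10.45, 10.48 and 10.47 on the resistant arrays and 10.66, 10.44 and 10.57 on the withdrawal arrays and passed when replicate 3 was left out (0.47 log2, SE 0.238, adjusted p = 0.177; without it 0.76 log2, SE 0.233, adjusted p = 0.0173). CCN1 likewise changed by 0.77 with all arrays (adjusted p = 0.0687) and by 1.33 without that array (adjusted p = 1.54e-05). SLC2A3 was not called in either comparison of LIM1215, with changes of -1.19 and -0.95 with all arrays and -0.50 and -0.26 without parental replicate 3, and in Caco2 changed by -0.001 and 0.06 (limma, adjusted p = 0.9995 and 0.977).

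Among the genes lower in SW48, ULBP1 had the largest rise. It read 7.51, 6.97 and 11.10 on the parental arrays, 7.71, 8.13 and 8.36 on the resistant arrays and 12.24, 12.26 and 12.12 on the withdrawal arrays. Withdrawal cells stood above parental cells (3.68 log2, SE 0.575, adjusted p = 8.72e-05; without replicate 3 4.97 log2, SE 0.199, adjusted p = 1.32e-13), and all 3 withdrawal arrays lay above every other array. SLCO1B3 read 8.73, 8.96 and 12.47 in parental and 13.41, 13.52 and 13.52 in withdrawal cells (3.43 log2, SE 0.544, adjusted p = 0.000102). CEACAM5 rose (1.42 log2, SE 0.356, limma adjusted p = 0.00588), though not without parental replicate 1 or 2 or with LIM1215 fitted on its own (adjusted p up to 0.0551). In the SW48 direction, PCYT2, an enzyme of phosphatidylethanolamine synthesis, fell by 1.93 and SLC7A8 by 1.61, and FAM174B fell at least 1.24-fold, to near background.

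Between resistant and withdrawal LIM1215 cells 44.0% of members were called (against 27.9% of all genes). Of the genes higher in SW48, 21 rose and 11 fell, and of the genes lower in SW48, 20 rose and 10 fell, where 13.6% of all genes rose and 14.4% fell. PLAUR, KRT80 and IGFBP3 had the largest such rises among the genes higher in SW48, 4.91, 3.73 and 3.48, PLAUR from near background. This contrast shares arrays with both of those above.

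**Figure D5:**
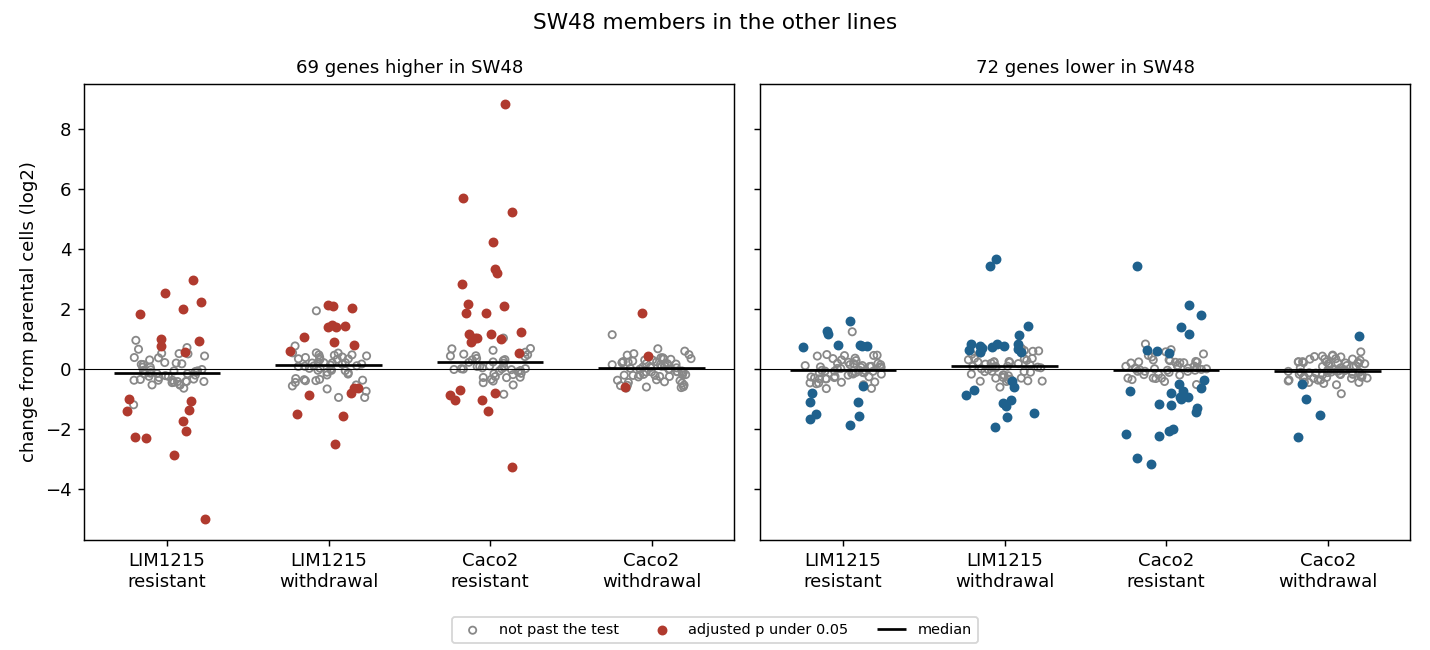
Change from parental cells (log2) of the 69 genes higher (left) and the 72 genes lower (right) in SW48, in resistant and withdrawal cells of LIM1215 and Caco2; filled points passed at an adjusted p under 0.05 with limma, open points did not, and bars are medians. The medians lie between -0.137 and 0.224, with members on both sides of 0, and few points in withdrawal Caco2 cells are filled.

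The change from parental cells differed between LIM1215 and Caco2 for 36.9% of members in resistant cells (21.3% of all genes) and 24.8% in withdrawal cells (13.4%). In resistant cells of both other lines 5 higher genes rose (CCN1, ETS1, IL17RC, IRF9 and SERPINA1) and 1 lower gene fell (PRKG2). TINAGL1 and TMEM144 were called against their SW48 direction in both lines. The TMEM144 call did not hold without resistant replicate 3 in LIM1215 or without parental replicate 1 or 3 or resistant replicate 1 or 2 in Caco2 (adjusted p up to 0.0971). The PRKG2 call in LIM1215 did not hold without parental replicate 1 or 2 or resistant replicate 1 or 3 (adjusted p up to 0.156). ETS1, SERPINA1 and PRKG2 were near background in both LIM1215 groups, and ETS1 reached 8.83, 8.30 and 7.90 in resistant Caco2 cells. No member was called in the SW48 direction in withdrawal cells of both lines. Called in the SW48 direction in both states of a single line were ANKRD29 (near background in all LIM1215 states) and FAM174B in LIM1215 and SERPINA1, CYP4V2, GTF2IRD2 and WDR72 in Caco2. With LIM1215 fitted on its own, the FAM174B call in resistant cells was lost (limma, adjusted p = 0.0547). Over all genes, calls in both states in 1 direction were made for 0.939% (higher) and 1.55% (lower) in LIM1215 and 1.56% and 1.58% in Caco2. A total of 50 members passed in none of the 4 comparisons with parental cells, among them PLAU, SLC2A3, KRT18, CRABP2, GAB2, MAOB and SLC6A20.

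The same rule applied within the other lines found 211 genes in LIM1215 (96 higher, 115 lower) and 200 in Caco2 (127 higher, 73 lower). LIM1215 shared 2 genes with SW48 in the same direction, IRF9 and FAM174B (0.948% of the LIM1215 and 1.42% of the SW48 genes), and 4 in opposite directions (CYP4V2, SLC2A3, SLCO1B3 and TM4SF1). Without LIM1215 parental replicate 3 the rule found 465 genes there (255 higher, 210 lower). Of these 6 were shared (CCN1, FAM174B, GBP3, IRF9, SECTM1 and WIPI1, 1.29% of the LIM1215 and 4.26% of the SW48 genes) and 5 opposite (CYP4V2, DPP4, SLCO1B3, TM4SF1 and ULBP1), so SLC2A3 was no longer among them. Caco2 shared 4, IFI6, SERPINA1, ULBP1 and WDR72 (2.0% of the Caco2 and 2.84% of the SW48 genes), and had ALDH3A1 in the opposite direction. Over all genes, 0.797% met the rule in SW48. IFI6 was near background in parental and withdrawal cells of both SW48 and Caco2, and IRF9 and SERPINA1 were so in SW48. Neither IFI6 nor ULBP1 was called in withdrawal against parental Caco2 cells.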

How the data were processed

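Values were used as the authors deposited them, 1 per probe set and array, and were read as log2 intensities; the log base was inferred from their range, and the sources used here name neither normalization nor software. Each array received labelled sense-strand cDNA made from 250 ng of RNA, per the labels' protocols. Of 24351 probe sets 2903 are controls and 21448 transcripts, of which 17709 were named by Entrez identifier and 3739 were not named. Where a gene had more than 1 probe set (20 genes) the brightest was used, giving 17687 genes, and dim genes were not filtered. A group mean under the 95th percentile of 612 negative controls was called near background. Folds against such a group use that percentile as its level and are lower bounds ("at least"), none being given where both groups are near background.

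A mean per group was fitted over all 27 arrays with limma 3.58.1 in R 4.3.3 (lmFit, eBayes; 18 residual and 4.12 prior degrees of freedom), with two-sided tests, each contrast adjusted by Benjamini-Hochberg over the 17687 genes; the fit was tested on simulated data. Each line was compared within itself, since levels differ between lines. SE is the standard error of that fit for 3 arrays a group. Files were read with data.table version 1.17.8 and pandas 2.3.3, and figures drawn with Python 3.11.15 and matplotlib 3.10.9. The genes and the 34 lists used to describe them (20 members fall in 16 of them) were chosen with earlier results of these data known. Named by rule were the 15 members in each direction with the largest smaller difference, members of a list, members called in both other lines and the 3 nearest the threshold; other members named were chosen after their values were seen. Promoter sequences were RefSeq's on GRCh38.p14; the array files name no build.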

Additional observations from a re-analysis of the deposited data

Results flagged for a closer look

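For 7 members the change from parental to resistant cells went opposite ways in LIM1215 and Caco2, with both changes past the test, and the difference between the lines passed as well (limma, adjusted over all genes, of which 21.3% differed). The LIM1215 change minus the Caco2 change was -6.22 log2 for TM4SF1, the tetraspan surface protein (-5.00 in LIM1215, 1.23 in Caco2; SE of the difference 0.361). It was -5.30 for CEMIP (SE 0.421) and -5.08 for ALDH3B1 (SE 0.337). It was -3.49 for TNS4 (SE 0.325) and -3.46 for ALDH3A1 (SE 0.35). In the other direction it was 3.42 for CYP4V2 (SE 0.315) and 1.36 for MPP7, a polarity scaffold (SE 0.182).

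For 4 members the same held of the change from parental to withdrawal cells, where 13.4% of all genes differed between the lines. The difference was 3.11 log2 for CYP4V2 (SE 0.315, adjusted p = 1.06e-06), 2.96 for CEACAM5 (SE 0.504, adjusted p = 0.000407), 2.70 for IGFBP3 (SE 0.22, adjusted p = 2.65e-08) and 1.27 for GTF2IRD2 (SE 0.167, adjusted p = 2.87e-05). CEACAM5 was 1.42 higher in LIM1215 and 1.54 lower in Caco2, so it moved with SW48 in Caco2 and against it in LIM1215. Each of the 4 had a call within a line that was lost in some of 26 alternative settings (limma). These were IGFBP3 in Caco2 (6 settings, adjusted p up to 0.158) and CYP4V2 in LIM1215 (3, up to 0.076). The others were GTF2IRD2 in Caco2 (3, up to 0.0661) and CEACAM5 in LIM1215 (3, up to 0.0551) and in Caco2 (1, 0.0512). Caco2 values of CEMIP, TNS4, CYP4V2 and IGFBP3 were near background in both groups compared, those of ALDH3A1 in parental Caco2 cells and those of TM4SF1 in resistant LIM1215 cells, so these differences are not exact measurements. Without LIM1215 parental replicate 3, a setting added after the data were seen, all 11 differences kept their direction and passed, for example -6.47 for TM4SF1, -4.71 for ALDH3B1 and 3.54 for CEACAM5. These members were chosen by their opposite calls, so this too is no separate support.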

How the results depend on the processing

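Of 139 calls of members against parental cells, 93 held in each of 26 alternative settings and 46 were lost in at least 1, 21 of them among the 43 calls in withdrawal LIM1215 cells; none reversed. With each array left out in turn, the calls in resistant LIM1215 cells with the SW48 direction ranged from 14 to 27 and against it from 15 to 23, and in withdrawal LIM1215 cells from 12 to 35 and from 13 to 26 (27 and 35 with the SW48 direction without LIM1215 parental replicate 3). The ranges were 36 to 48 and 13 to 20 in resistant Caco2 cells and 4 to 9 and 0 to 3 in withdrawal Caco2 cells. From resistant to withdrawal cells they were 24 to 38 and 24 to 34 in LIM1215 and 14 to 23 and 32 to 43 in Caco2. The number of members ranged from 66 to 80 higher and 68 to 85 lower.

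With a threshold of 1 in place of 0.8, 30 higher and 35 lower members were left, and fewer could be called. The calls with the SW48 direction were then 10 (resistant) and 11 (withdrawal) in LIM1215 and 18 and 3 in Caco2. Against it they were 16 in resistant and 11 in withdrawal LIM1215 cells and 7 in resistant Caco2 cells. From resistant to withdrawal cells they were 19 with and 14 against in LIM1215 and 7 and 18 in Caco2. With each line fitted on its own, 13 were called with the SW48 direction in withdrawal LIM1215 cells and 4 against it in withdrawal Caco2 cells; the cause was not tested. The replicate numbers of the labels gave no pairing: deviations of same-numbered arrays correlated between -0.0407 and 0.0749 over 27 pairs, 0 of them over 0.1. With the replicate number as a block, 17 and 18 members were called in resistant LIM1215 cells, 21 and 21 in withdrawal LIM1215, 38 and 16 in resistant Caco2 and 6 and 2 in withdrawal Caco2 cells, with and against SW48. In a setting added after the data were seen, the same rule in LIM1215 without its parental replicate 3 found 255 higher and 210 lower genes in place of 96 and 115, of which 91 and 103 were found with all arrays. With 3 arrays a group, the number of arrays limits precision, and members near background have no measured level.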
